A study of Rattus norvegicus with 16 samples.

Results

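The phagocyte NADPH oxidase subunits were followed in whole blood of control rats. The set comprised 6 genes, Cybb, Cyba, Ncf1, Ncf4, Rac1 and Rac2, found by their symbols among the 18031 genes listed for all libraries. Each symbol was matched to the entry with the highest total. The libraries came from 16 adult male Sprague-Dawley rats aged 85 to 90 days, all labelled Saline Control. Each animal received 4 injections of saline at 1 ml/kg, spaced 2 h apart, and blood was drawn from the heart 3 h after the last injection. The study's other groups were not analysed here. The comparisons concern how far the subunit transcripts differed among control animals, whether they varied together, and whether they differed between run codes. What the run codes stand for is not given by the labels. The animals are numbered control 1 to control 16, as in the labels.

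The oxidase transfers electrons from NADPH to oxygen across the membrane of neutrophils, monocytes and macrophages, and the superoxide it makes serves the killing of ingested microbes. Cybb (gp91phox) is the catalytic subunit and pairs in the membrane with Cyba (p22phox). In the resting cell cytosolic proteins, among them Ncf1 (p47phox) and Ncf4 (p40phox), are kept apart from the membrane, and on stimulation they move to it together with a small GTPase of the Rac family. Rac2 is largely restricted to blood cells, whereas Rac1 is made in nearly all cells. Loss of Cybb, Cyba or Ncf1 in humans causes chronic granulomatous disease, in which phagocytes fail to kill certain bacteria and fungi.

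Promoter sequences from RefSeq (build GRCr8) were at hand for Cybb, Cyba and Ncf1 only. They are shown because Cyba and Ncf1 varied closely together across the animals, while the correlation of Cybb with each did not pass the test used. Any part of the sequences in this was not tested. Each sequence runs 5′ to 3′ on the strand of its gene, from 250 bases before the start to 50 after it. They lie at chrX:16065016-16065315 on the minus strand for Cybb, chr19:67404165-67404464 on the minus strand for Cyba and chr12:28121635-28121934 on the plus strand for Ncf1. Capitals mark a match to GAGGAA, a sequence bound by PU.1, which was searched on both strands, so that its reverse complement TTCCTC also counts. The shorter core GGAA, shared by ETS factors, was not searched and is not marked.
Cybb: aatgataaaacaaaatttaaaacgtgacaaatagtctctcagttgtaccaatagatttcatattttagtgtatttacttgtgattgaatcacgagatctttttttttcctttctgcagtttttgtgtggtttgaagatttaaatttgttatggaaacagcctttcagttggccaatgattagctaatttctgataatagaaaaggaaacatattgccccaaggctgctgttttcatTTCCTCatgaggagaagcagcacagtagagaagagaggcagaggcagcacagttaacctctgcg
Cyba: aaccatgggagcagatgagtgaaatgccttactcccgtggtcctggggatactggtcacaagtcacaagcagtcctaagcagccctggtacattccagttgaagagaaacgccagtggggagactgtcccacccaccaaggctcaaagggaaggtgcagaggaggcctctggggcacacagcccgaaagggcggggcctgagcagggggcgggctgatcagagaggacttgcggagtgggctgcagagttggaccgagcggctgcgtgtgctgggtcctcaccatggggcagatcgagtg
Ncf1: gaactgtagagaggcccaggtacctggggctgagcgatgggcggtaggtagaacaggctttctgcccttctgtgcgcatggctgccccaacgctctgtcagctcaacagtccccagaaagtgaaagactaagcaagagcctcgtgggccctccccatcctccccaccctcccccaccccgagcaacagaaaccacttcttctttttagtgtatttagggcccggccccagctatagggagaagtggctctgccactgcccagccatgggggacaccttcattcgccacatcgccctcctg
The Cybb sequence held 1 match, on the reverse strand, starting at position -14 relative to the gene's start, and the Cyba and Ncf1 sequences held 0. Of 33469 rat promoters of the same length, 9239 (27.6%) held at least 1 match. The match describes letters in a window of 300 bases. Ncf4 and Rac2 lie on the same chromosome of GRCr8, with 9 protein-coding genes between them.

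The libraries held 21466776 to 31189549 estimated counts, and the subunits 624 to 19270 counts per library, so none of the 6 was near the limit of detection. The estimates were not whole numbers in 16 of 16 libraries for Cybb, 14 for Ncf1, 10 for Rac2, 8 for Ncf4 and 3 each for Cyba and Rac1. The counts are per gene, so such estimates can hold parts of reads that were divided with transcripts of other genes. How much that adds to a gene's spread was not tested. Some libraries stood apart in the markers of cell types and tissues. The sum of 10 neutrophil genes ran from 35761 normalized counts in control 6 to 1182812 in control 8, with a median of 216064. Of these 10, S100a8 and S100a9 had the highest counts and Ltf was near 0 throughout, with a mean of 6.04. Control 8 was also lowest in the summed T cell (8929.8) and B cell (4922) genes. Control 12 was highest in T cell genes (21406). The 7 liver genes summed to 433630.3 in control 2 against a median of 47.4. Control 8 came next for each of the 7, with 11402 counts of Alb and 4259 of Fgb, and the mean log2 level of the list was 14.21 in control 2, 9.79 in control 8, 7.59 in control 7, 6.18 in control 5 and at most 3.17 in the others. Control 8 was thus highest in neutrophil genes and next to highest in liver genes, and the part of the liver transcripts in its values was not tested. The 5 cardiac muscle genes reached at most 357, in control 10. For these reasons the relations were also computed without controls 2, 8 and 12, and calls lost without them are given beside each relation or with the counts of calls.

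Both membrane subunits varied among the control animals, and Cyba the more widely. Levels are given as normalized counts, that is, counts divided by a size factor of each library, and are not adjusted for transcript length, so they were compared between animals and not between genes. Cybb (ENSRNOG00000003622) ranged from 1148 in control 4 through a median of 2396 to 3741 in control 8, a 3.26-fold range around a mean of 2471 ± 756 (SD, n = 16). Control 6 (3682) stood next to control 8 at the top, and controls 4 and 2 (1359) lay at the bottom. Cyba (ENSRNOG00000013014) ranged from 888.0 in control 4 through a median of 1629.7 to 4633 in control 8, a 5.22-fold range, with a mean of 1834 ± 984 (SD, n = 16). Control 14 (3208) followed control 8, while control 6, near the top for Cybb, was second lowest for Cyba at 904.

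The cytosolic subunits ranged about as widely as Cyba. Ncf1 (ENSRNOG00000001480), the organizer that docks on Cyba, ranged from 2089 in control 10 through a median of 3825 to 11351 in control 8, a 5.43-fold range, with a mean of 4359.6 ± 2479 (SD, n = 16). Control 14 was again second, at 7170.2. Ncf4 (ENSRNOG00000006940), which binds a membrane phosphoinositide, ranged from 1289 in control 6 through a median of 3844 to 6425 in control 8, a 4.98-fold range, with a mean of 3821 ± 1633 (SD, n = 16). Here control 8 led the next library, control 7 (5551), by little, and control 14 lay below the median.

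Of the GTPases, Rac2 was highest in controls 8 and 14, as were Cyba and Ncf1, and Rac1 was highest in control 16. Rac2 (ENSRNOG00000007350) ranged from 7475 in control 6 through a median of 11129 to 24986 in control 8, with control 14 second at 18895 and a mean of 12079 ± 4268 (SD, n = 16). The other 14 libraries lay between 7475 and 13638, so the range of 3.34-fold rests largely on 2 animals. Rac1 (ENSRNOG00000001068) ranged from 2480.0 in control 10 through a median of 4587 to 9249 in control 16, a 3.73-fold range, with a mean of 4791 ± 1629.9 (SD, n = 16). Controls 14 (6540) and 8 (6149) came next for Rac1. Control 16 had the highest Rac1 and lay below the median for 4 of the other subunits, all but Cyba.

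**Figure D1:**
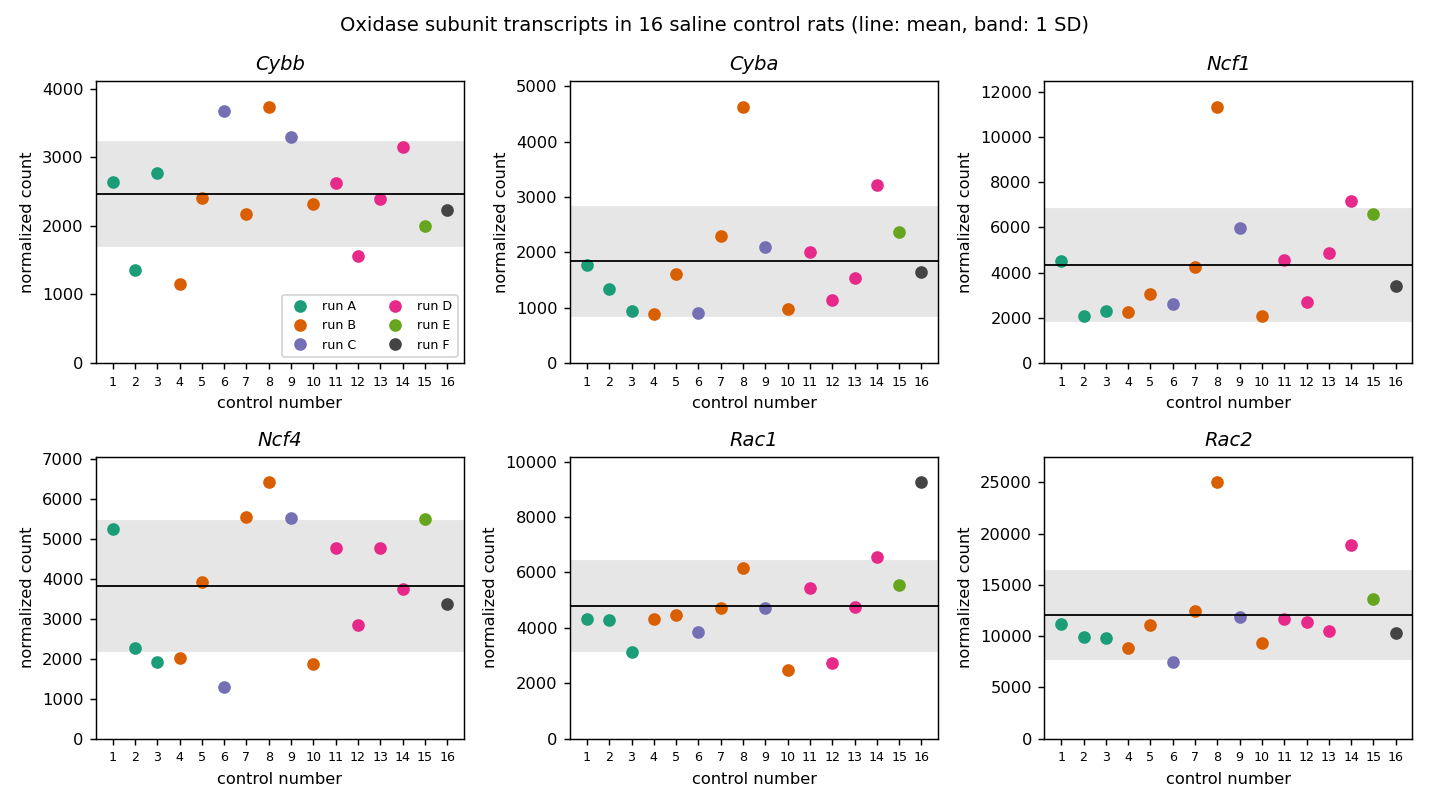
Normalized count (linear axis) of each subunit against control number, with 1 point per library coloured by run code, the mean as a line and 1 SD as a grey band. Control 8 is the top point for every subunit except Rac1, where control 16 is highest at 9249.

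The coefficient of variation, the SD as a percentage of the mean, was 30.6% for Cybb, 34.0% for Rac1, 35.3% for Rac2, 42.7% for Ncf4, 53.7% for Cyba and 56.9% for Ncf1. The median over 2449 genes that averaged 1000 normalized counts or more was 29.7%, with quartiles of 19.9% and 43.3%. Cybb was thus near the middle of these genes, with 52.2% of them below it. For Cyba and Ncf1, 87.4% and 89.8% of the genes varied less. Without control 8 the coefficients of Cyba, Ncf1 and Rac2 were 40.3%, 43.4% and 23.3%, and without control 16 that of Rac1 was 25.7%. The libraries did not simply rank alike for all subunits. All 6 subunits were above their medians in 3 libraries (controls 8, 9 and 11), none was in 3 (controls 2, 4 and 10), and 10 libraries were mixed.

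Cyba, Ncf1, Ncf4 and Rac2 varied together across the animals, Rac1 varied with some of them, and Cybb with none by the test used. Correlations were taken on log2(normalized count + 1) over the 16 libraries. Permutation tests were two-sided, and p-values were adjusted over 51 relations, which are 15 pairs of subunits and 36 of a subunit with a marker list. Of the 15 pairs, 8 passed an adjusted p of 0.05, all with positive r, and 10 had an unadjusted p under 0.05. Spearman's rho with the same adjustment gave 10. As a background, 13.6% of 8368 other genes had an r of at least 0.7 with Cyba, 14.4% with Ncf1, 12.3% with Ncf4, 10.3% with Rac2, 4.31% with Rac1 and 0.466% with Cybb.

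The closest pair was Cyba and Ncf1, with a Pearson r of 0.93 (rho 0.88, permutation adjusted p = 0.000102, from the smallest p that 100000 permutations can give). It was 0.95 after centring within run codes and 0.87 without the farthest libraries, controls 8 and 14. Cyba and Rac2 followed at 0.92 (rho 0.94, permutation adjusted p = 0.000102), with 0.93 within run codes and 0.86 without controls 8 and 14. In the order of all genes by their r with Rac2, Cyba would take place 22 of 8368, and in the order for Cyba, Ncf1 would take place 59. Ncf1 and Rac2 reached 0.86 (rho 0.86, permutation adjusted p = 0.00017), 0.91 within run codes and 0.74 without controls 8 and 14.

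Ncf4 was close to Cyba at an r of 0.84 (rho 0.85, permutation adjusted p = 0.00051) and to Ncf1 at 0.83 (rho 0.81, permutation adjusted p = 0.00068). Both were higher without controls 8 and 14, at 0.93 and 0.88, and were 0.82 and 0.83 within run codes. With Rac2 the r of Ncf4 was 0.69 (rho 0.84, permutation adjusted p = 0.0063), 0.65 within run codes and 0.58 without controls 6 and 10. Rac1 passed with Cyba at 0.66 (rho 0.76, permutation adjusted p = 0.0138), 0.79 within run codes and 0.61 without controls 8 and 14. With Ncf1 it had an r of 0.61 (rho 0.78, permutation adjusted p = 0.0258) and 0.76 within run codes, but 0.52 with a permutation p of 0.052 without controls 8 and 14. That call was also lost when control 8, 10 or 14 alone was left out, and without controls 2, 8 and 12, at an r of 0.59 (permutation adjusted p = 0.0838). Rac1 and Rac2 did not pass, at 0.46 (rho 0.63, permutation adjusted p = 0.107), nor did Rac1 and Ncf4 at 0.53 (rho 0.62, permutation adjusted p = 0.0555). Both pairs passed by rho (permutation adjusted p = 0.0245 and 0.0273), within run codes, at an r of 0.65 and 0.62, and without control 16, at 0.65 and 0.66.

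None of the 5 pairs with Cybb passed. The highest was Cybb and Ncf1 at an r of 0.55 (rho 0.47, permutation adjusted p = 0.0505), which was 0.68 within run codes and 0.38 without controls 4 and 2. It passed under other scalings and without control 3, 6 or 15. Cybb and its membrane partner Cyba reached 0.44 (rho 0.32, permutation adjusted p = 0.12), with 0.61 within run codes and 0.29 without controls 4 and 2. With Rac2, Ncf4 and Rac1 the r of Cybb was 0.38, 0.25 and 0.21. Leaving out control 6 raised the r of Cybb and Cyba to 0.64 and that of Cybb and Rac2 to 0.61, and both then passed. After centring within run codes 13 of the 15 pairs passed, and the 2 that did not were those of Cybb with Ncf4 and Rac1. Centring also left out controls 15 and 16, the only libraries of their runs, and the permutations took no account of the run means removed. The pairs gained each also passed uncentred with 1 library left out. What removing run differences added to the count was not tested. Whether Cybb and the other subunits differ in their correlations was not tested.

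**Figure D2:**
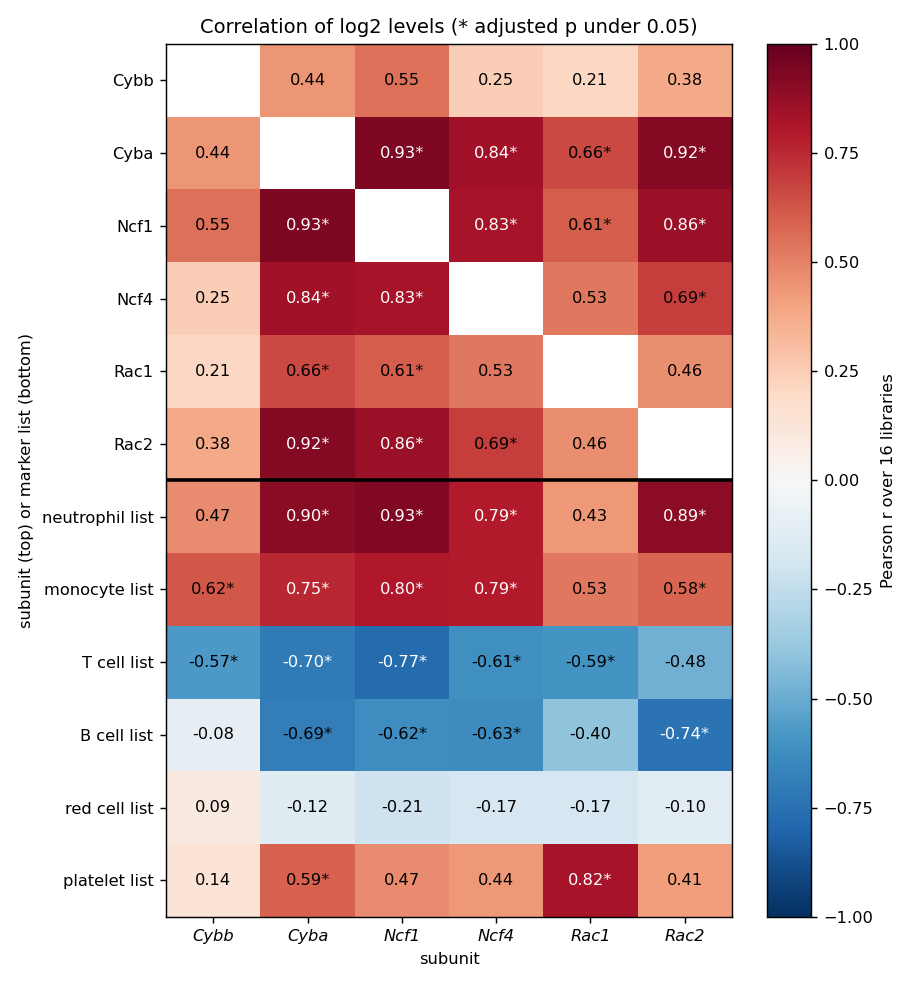
Pearson r over 16 libraries (colour scale from -1 to 1, values printed) of each subunit in columns with the other subunits in the upper rows and with 6 marker lists in the lower rows, an asterisk marking an adjusted permutation p under 0.05. The Cybb column holds no asterisk among the subunits, and Rac1 is the subunit with the highest r with the platelet list, 0.82.

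Ratios of counts between partners put these relations on another scale and are no further evidence for them. The log2 ratio of Cyba to Ncf1, chosen after the values of all ratios were seen, had an SD of 0.263 across the 16 libraries, the smallest of the 15 pairs, although the log2 level of Cyba itself had an SD of 0.685 and that of Ncf1 0.727. The ratio of Cybb to Cyba had an SD of 0.640 and ran from -0.31 in control 8 to 2.03 in control 6, a 5.05-fold range. Controls 6, 3 and 10 were at the Cybb-rich end and controls 8, 15, 7 and 14 at the other. For the cytosolic pair Ncf1 and Ncf4 the SD was 0.425, from -0.38 in control 7 to 1.01 in control 6. The ratio of Rac1 to Rac2 had an SD of 0.463 and ran from -2.06 in control 12 to -0.15 in control 16. Control 16 stood apart there, and without it the SD was 0.348. The ratios are of counts not adjusted for length, so their size says nothing about which partner has more transcripts.

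**Figure D3:**
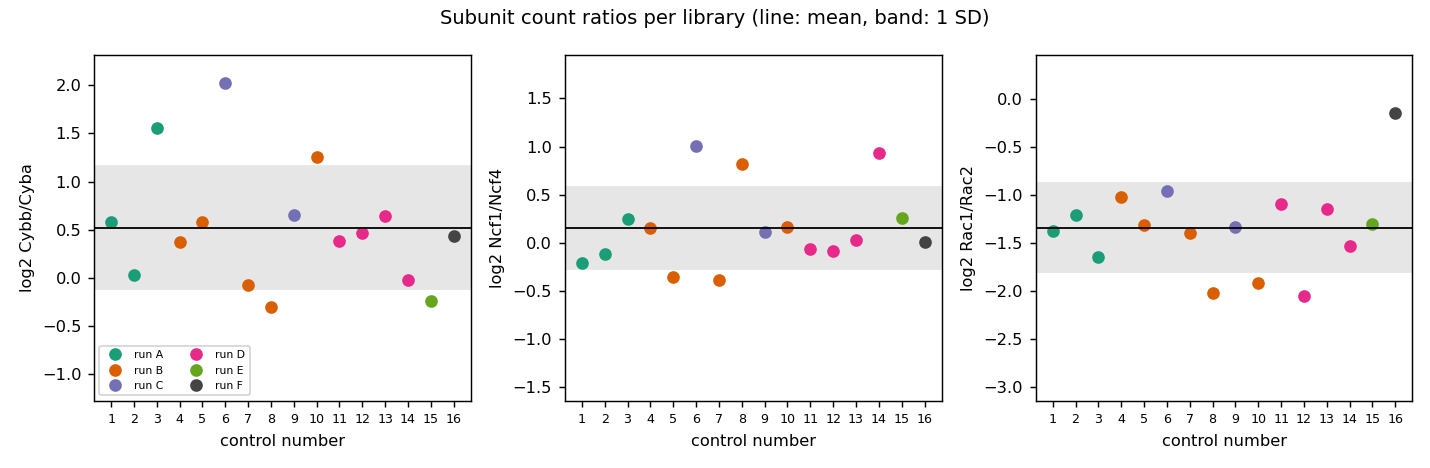
Log2 ratio of normalized counts for Cybb/Cyba, Ncf1/Ncf4 and Rac1/Rac2 against control number, 1 point per library coloured by run code, with the mean as a line and 1 SD as a grey band. The 3 axes span the same number of log2 units, and control 6 is the highest point for Cybb/Cyba (2.03) and Ncf1/Ncf4 (1.01) and control 16 for Rac1/Rac2 (-0.15).

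Because blood is a mixture, the subunits were set beside markers of its cell types. In bulk blood, fewer cells of a type cannot be told apart from less RNA per cell. Of the 36 relations 20 passed, 11 positive and 9 negative, and 21 had an unadjusted p under 0.05. Without controls 2, 8 and 12, 10 passed. Ncf1, Cyba and Rac2 had an r of 0.93, 0.90 and 0.89 with the mean level of the neutrophil list (rho 0.88, 0.89 and 0.91, permutation adjusted p = 0.000102 each). Without controls 8 and 14 these were 0.87, 0.81 and 0.83, and within run codes 0.95, 0.93 and 0.91. Ncf4 followed at 0.79 (rho 0.83, permutation adjusted p = 0.0017), 0.80 within run codes and 0.86 without controls 8 and 14. Each of the 9 neutrophil genes with a mean of at least 100 had an r of at least 0.7 with Cyba, Ncf1 and Rac2, and 7 of them did with Ncf4. For Cybb and Rac1 the count was 0 of 9, and their r with the list was 0.47 (rho 0.34, permutation adjusted p = 0.102) and 0.43 (rho 0.64, permutation adjusted p = 0.13). Cybb reached 0.68 within run codes, and 0.25 without controls 8 and 14. Rac1 was at 0.66 within run codes and 0.24 without those animals, and by rho it passed (permutation adjusted p = 0.0202).

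The monocyte list passed with 5 subunits, Ncf1 at 0.80 (rho 0.86, permutation adjusted p = 0.0013), Ncf4 at 0.79 (rho 0.69), Cyba at 0.75 (rho 0.82), Cybb at 0.62 (rho 0.43, permutation adjusted p = 0.0238) and Rac2 at 0.58 (rho 0.73, permutation adjusted p = 0.0327). Without controls 4 and 2 the r of Cybb was 0.20, so its relation rests on those animals, and it was 0.82 within run codes and 0.44 without controls 2, 8 and 12 (permutation adjusted p = 0.209). Rac1 had an r of 0.53 with this list (rho 0.69, permutation adjusted p = 0.0555), 0.69 without controls 4 and 2. By rho Rac1 passed (permutation adjusted p = 0.0108) and Cybb did not (permutation adjusted p = 0.145). For the other 4 that passed, in the same order, it was 0.78, 0.81, 0.77 and 0.56 without them and 0.79, 0.79, 0.75 and 0.61 within run codes, and the call of Rac2 was lost without control 4, 6, 10 or 14. The 6 monocyte genes measured did not move as one. Ccr1, Cd14 and Lyz2, which neutrophils also make, had an r of 0.65 to 0.91 with Cyba, Ncf1, Ncf4 and Rac2. Csf1r and Cx3cr1, receptors typical of monocytes, had an r of -0.14 and -0.57 with Cyba, -0.13 and -0.51 with Ncf1, -0.20 and -0.50 with Ncf4 and -0.33 and -0.66 with Rac2. Cd68, a lysosomal protein of macrophages and monocytes, had 0.33, 0.40, 0.40 and 0.10 with these 4 subunits. With Cybb the r was 0.51 for Ccr1, 0.50 for Cd68, 0.42 for Csf1r, 0.38 for Cd14, 0.26 for Lyz2 and 0.13 for Cx3cr1. This grouping of the 6 genes was made after their values were seen.

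The highest r of Rac1 with a marker list was that with platelet genes. The platelet list had an r of 0.82 with Rac1 (rho 0.70, permutation adjusted p = 0.00022), which was 0.85 within run codes and 0.73 without controls 10 and 12. With Rac2 the r was 0.41 (rho 0.43, permutation adjusted p = 0.148). Of the 6 platelet genes, 5 had an r of at least 0.7 with Rac1 and 0 with any other subunit. Control 16 had the highest sum of platelet genes (101795) and the highest Rac1, and control 10 the lowest of both (7381 for the sum). Cyba also passed with this list at 0.59 (rho 0.60, permutation adjusted p = 0.03), 0.57 without controls 10 and 12 and 0.66 within run codes, a call lost without control 8, 12 or 14, and without controls 2, 8 and 12, at 0.56 (permutation adjusted p = 0.0878). The difference between the r of Rac1 and that of Rac2 was not tested.

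Lymphocyte lists had negative r with the subunits under the scaling used. For T cell genes these were -0.77 with Ncf1, -0.70 with Cyba, -0.61 with Ncf4, -0.59 with Rac1 and -0.57 with Cybb, and all 5 passed (permutation adjusted p = 0.0017, 0.0069, 0.0253, 0.03 and 0.0375). For B cell genes they were -0.74 with Rac2, -0.69 with Cyba, -0.63 with Ncf4 and -0.62 with Ncf1 (permutation adjusted p = 0.0046, 0.0089, 0.022 and 0.0238). Within run codes the 5 T cell values lay between -0.83 and -0.55 and the 4 B cell values between -0.82 and -0.71, and rho over all libraries ran from -0.71 to -0.50. By rho the calls of T cell genes with Rac1 and of B cell genes with Ncf1 were lost (permutation adjusted p = 0.0796 and 0.0813). Without the farthest libraries, controls 12 and 8, the T cell values ran from -0.70 to -0.39, and without controls 8 and 6 the B cell values ran from -0.42 to -0.37, so that the B cell relations rest on those animals. With total count scaling all 9 relations lost their call, and those of T cell genes with Cybb and Rac1 turned to 0.04 and 0.04. Without controls 2, 8 and 12 that of T cell genes with Ncf1 was the only one of the 9 to pass, at -0.70, and the same held without control 8 alone (-0.68). T cell genes with Rac2, at -0.48, did not pass (permutation adjusted p = 0.0946). Nor did B cell genes with Rac1, at -0.40, or with Cybb, at -0.08 (permutation adjusted p = 0.156 and 0.77). By rho B cell genes with Rac1 passed (permutation adjusted p = 0.045). B cell genes with Cybb turned to 0.50 without controls 2, 8 and 12 (permutation adjusted p = 0.162). The red cell list passed with 0 of 6 subunits in permutation tests, adjusted or unadjusted, with r between -0.21 and 0.09. Neither the cell makeup of the blood nor its part in these relations was tested.

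**Figure D4:**
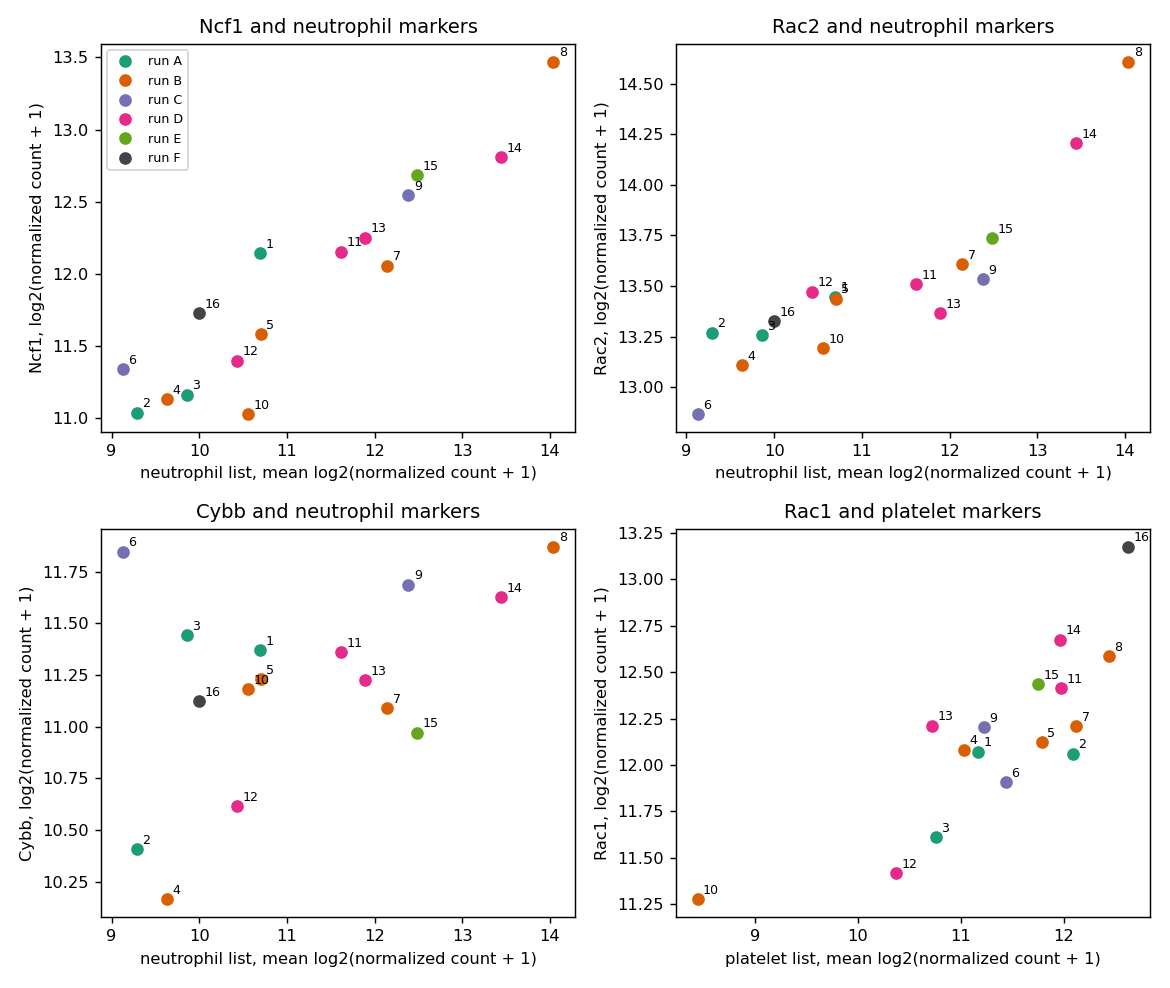
Level of a subunit, log2(normalized count + 1), against the mean log2(normalized count + 1) of a marker list, for Ncf1, Rac2 and Cybb with neutrophil genes and Rac1 with platelet genes, 1 numbered point per library coloured by run code. Controls 8 and 14 are the 2 libraries farthest to the right on the neutrophil axes, and control 10 is farthest to the left on the platelet axis.

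The genes closest to each subunit were taken among 8368 genes with a symbol and a mean of at least 100 normalized counts, by Pearson r over the 16 libraries, as a description. For Ncf1 they were Slc15a3 (0.97), Nadk (0.97), the kinase that makes NADP from NAD, and Fgr (0.97), a Src family kinase of myeloid cells. Cyba was followed most closely by Gadd45b (0.97), Tes (0.97) and Slc15a3 (0.97), so that Slc15a3 was among the 3 closest for both. For Ncf4 they were Bst1 (0.98), a surface enzyme of myeloid and other cells, RGD1565374 (0.97) and Plekhb2 (0.97), and for Rac2 Stx3 (0.98), Ltb (0.97) and Batf (0.96). Rac1 had Rb1 (0.96), Fermt3 (0.95), which activates integrins in platelets and leukocytes, and Ilk (0.94), the integrin-linked kinase. Cybb had lower values, with March1 (0.81) and Tor1aip1 (0.78) among its 3 closest.

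At the opposite end, Cybb had Aplf (-0.91), Cdca7l (-0.88) and Pcgf1 (-0.85). Slc25a12, a mitochondrial carrier, and the ion channel gene Trpm6 were among the 3 lowest for both Cyba (-0.95 and -0.93) and Rac2 (-0.89 and -0.88). The remaining places were held by Ttc3 (-0.94) for Cyba and Acot2 (-0.94) for Rac2. Ncf1 had Mfn1 (-0.91), Recql (-0.90) and Sesn1 (-0.90), and Ncf4 had Ipo5 (-0.89), Srek1 (-0.88) and Csrp2bp (-0.88). Rac1 had Snapc5 (-0.92), Rrn3 (-0.85) and Mettl16 (-0.85).

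The genes that assemble or regulate the oxidase were examined as a list of 21, of which 20 were found in all libraries. Their median coefficient of variation was 30.9%, beside 29.7% for the genes that averaged 1000 normalized counts or more. The 2 sets are unlike, since some genes of the list averaged less, such as Pla2g4a at 117.6. An r of at least 0.7 was reached by 10 of 20 with Ncf4, 9 with Cyba, 9 with Ncf1, 7 with Rac2, 3 with Rac1 and 0 with Cybb, to be read against the background shares above.

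The highest mean counts of the list, not adjusted for length, were those of Arhgdib, a protein that holds small GTPases such as Rac in the cytosol, at 16455 ± 2822 (SD, n = 16), and the Src family kinase Lyn at 7853 ± 4683 (SD, n = 16). Arhgdib varied little (17.1%) and had an r between -0.01 and 0.43 with the subunits. Lyn varied by 59.6% and had an r of 0.96 with Ncf1 and 0.61 with Cybb. The highest coefficient was that of Fpr1, the formyl peptide receptor that triggers the oxidase (98.5%, from 51.0 in control 2 to 2208 in control 8). Hvcn1, the proton channel that balances the charge moved by the oxidase, had an r of -0.72 with Cyba and -0.77 with Rac2, was lowest in control 8 (217) and highest in control 6 (859.6), and was singled out after its values were seen. Of all 8368 genes compared, 6.97% had an r below -0.7 with Cyba and 3.86% with Rac2, so nothing is read from 1 such gene in this list. Prkcb and Pik3cg also had negative values with both, -0.22 and -0.10 with Cyba and -0.32 and -0.17 with Rac2.

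Other NADPH oxidases had few counts in these libraries. Of 9 genes in this family list 8 were found in all libraries, and none had a mean of 100 normalized counts. Nox1 averaged 40.6 ± 12.2 (SD, n = 16), from 22.0 to 65.4. The other 7, Nox4, Noxo1, Noxa1, Duox1, Duox2, Duoxa1 and Duoxa2, averaged 0.271 to 2.82 and had no count in 5 to 13 libraries each. The mean of Nox4, 2.79, came mostly from control 2, with 41.2 normalized counts against at most 1.25 in the others. A count of 0 allows up to 3 counts, which is 0.0962 to 0.14 CPM (counts scaled to library size) in these libraries.

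The enzymes that supply NADPH included some that followed the subunits. Of 8 in this list 7 were found in all libraries and 6 averaged at least 100. The pentose phosphate enzymes Taldo1 (8999 ± 3170.5, SD, n = 16) and Tkt (5330.2 ± 2364, SD, n = 16) had the highest mean counts, and Tkt had an r of 0.92 with Ncf1 and 0.90 with Cyba. The malic enzyme Me1 varied the most (54.6%) and had its highest r with Rac1, 0.90. Idh1 (47.5%) was highest in control 2, the library with the highest sum of liver genes, and had an r between -0.18 and 0.25 with the subunits. Of these 6 genes 3 reached an r of 0.7 with Cyba, 3 with Ncf4, 2 each with Ncf1 and Rac2, 1 with Rac1 and 0 with Cybb.

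Among 15 other GTPases related to Rac and found in all libraries, 9 averaged at least 100. Rhoa, a regulator of contraction and adhesion, averaged 11785 ± 2901 (SD, n = 16) and had an r of 0.90 with Cyba. Cdc42, which drives filopodia, averaged 7931 ± 1989.5 (SD, n = 16) and had an r between 0.11 and 0.55 with the subunits. Rhov (75.8%) and Rhoc (52.3%) varied the most, and Rhov had an r of 0.93 with Ncf1 and Rhoc 0.91 with Ncf4. Rac3, the third Rac paralog, averaged 1.13 and had no count in 5 libraries. Of the 9 genes, 4 reached an r of 0.7 with each of Cyba, Ncf1, Ncf4 and Rac2, 2 with Rac1 and 0 with Cybb.

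The libraries were split by run codes, which are codes in the deposited file names and are lettered here. The labels do not say what they stand for. The study repeated its experiment over time, and the labels do not tie the animals to a repeat, so a run cannot be told apart from the repeat or from other things its libraries share. Run A held controls 1 to 3, run B controls 4, 5, 7, 8 and 10, and run D controls 11 to 14, and the other 4 libraries were in runs too small to compare. In edgeR's quasi-likelihood test over 12952 genes, adjusted by Benjamini-Hochberg, 0 genes were called between B and A (0.0%), 0 between D and A (0.0%) and 298 between D and B (2.3%). At an unadjusted p under 0.05 the shares were 13.6%, 5.41% and 11.3%. DESeq2 called 563, 14 and 742 genes and limma 6, 2 and 306. The count between D and B was 2 or 3 without control 5, 11, 13 or 14, 27, 59 and 95 without control 12, 10 or 7, and 5.44% of the genes were called without control 4. Between B and A 506 genes were called without control 4. None of the 6 subunits was called in any of the 3 comparisons, 0 had an unadjusted p under 0.05, and DESeq2 and limma also called 0.

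The ranges of the runs overlapped for every subunit. Cybb averaged 2260.4 ± 784 in run A (n = 3), 2358 ± 923 in run B (n = 5) and 2436 ± 662 in run D (n = 4). For Ncf1 the means were 2970.3 ± 1345, 4600.1 ± 3870.2 and 4825 ± 1835. Its log2 change was 0.60 ± 0.55 (SE) for B against A and 0.70 ± 0.58 for D against A (adjusted p = 0.657 and 0.929 by edgeR's quasi-likelihood test). Without control 8 the first was -0.04. Cyba had 0.60 ± 0.53 and 0.55 ± 0.54, Ncf4 0.31 ± 0.46 and 0.36 ± 0.48, Rac2 0.35 ± 0.34 and 0.35 ± 0.35, and Rac1 0.16 ± 0.31 and 0.32 ± 0.33. Cybb had 0.04 ± 0.36 and 0.11 ± 0.38. Between D and B the 6 changes lay between -0.05 and 0.16 (edgeR adjusted p of 0.983 to 0.999). With standard errors of 0.29 to 0.58, differences of that size were not detectable with these libraries. In the same fit all 4 red cell genes measured were called between D and B, with log2 changes of -1.44 (Alas2), -1.43 (Slc4a1), -1.23 (Epb42) and -1.14 (Ahsp) (edgeR adjusted p of 0.027 to 0.0468). Of all genes 2.3% were called in that comparison. Without control 5, 11, 13 or 14 only 2 or 3 genes were called in all, so the 4 red cell genes were not all called there. Of the neutrophil and liver genes edgeR called 0 in the 3 comparisons after adjustment. The median log2 change of the 9 neutrophil genes was 2.31 for B against A and 1.95 for D against A, with 4 and 1 of them at an unadjusted p under 0.05, and 0.00 for D against B. For the 7 liver genes it was -5.09, -11.83 and -6.50, with 6, 7 and 4 at an unadjusted p under 0.05. In run A the liver level came from control 2 alone, with a mean log2 level of 14.21 against 3.17 and 2.61 in controls 1 and 3. In run B it was 9.79, 7.59 and 6.18 in controls 8, 7 and 5 and 1.87 and 3.08 in controls 4 and 10. In run D it was 1.24 to 2.50. The part of these lists in the changes of the subunits was not tested.

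**Figure D5:**
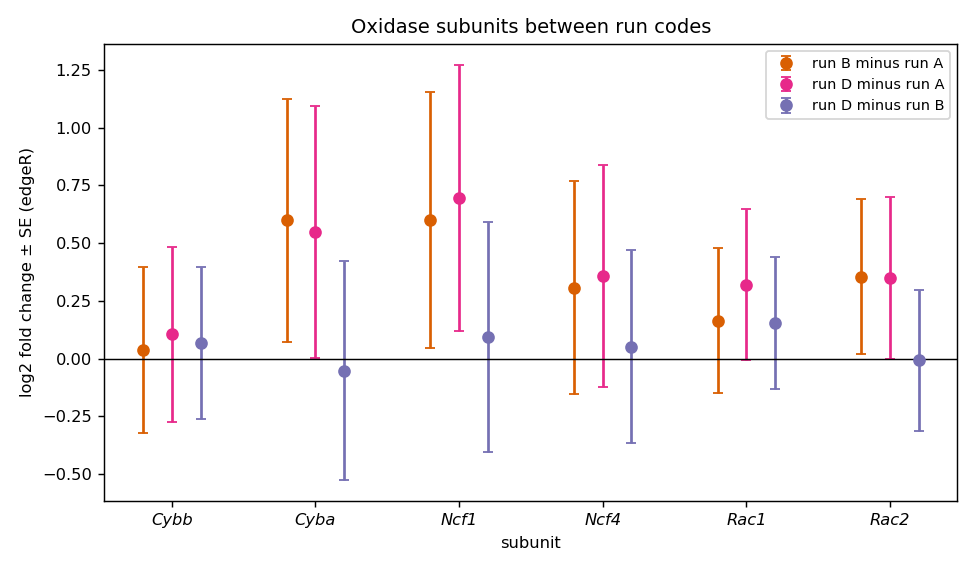
Log2 fold change with its SE (bars) from edgeR for each subunit between run codes B and A, D and A, and D and B (n = 3, 5 and 4 libraries in A, B and D). The largest change is 0.70 ± 0.58 for Ncf1 between D and A, and none of the 18 had an adjusted p under 0.05.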

How the data were processed

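Whole blood RNA of 16 rats was depleted of globin mRNA, selected for poly(A) RNA, prepared with a stranded kit and sequenced in pairs. The authors made base calls with CASAVA 1.8.2, clipped the reads, aligned them with Bowtie 0.12.9 to an Ensembl transcriptome of the build rn5 and deposited expected counts per gene from RSEM 1.2.0, which were not normalized. Genes not listed for every library cannot be taken as 0, so the 18031 listed for all of 26405 were used, and their counts were rounded.

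Levels are counts divided by DESeq2 1.42.0 size factors, and log2 levels use a pseudocount of 1. Depth was 21466776 to 31189549 counts, and floors cover counting error only. Every pair of libraries differed beyond sampling noise (lowest chi-square per degree of freedom 48.0), and each library was counted as 1 sample. Run codes A, B and D (12 libraries) were compared in one fit with edgeR 4.0.16 (TMM, filterByExpr, quasi-likelihood F-test, Benjamini-Hochberg) in R 4.3.3. Correlations were tested with 100000 permutations in Python 3.11.15. Centring within run codes used the 14 libraries of runs with at least 2. DESeq2 and limma 3.58.1, other scalings, a pseudocount of 10, unrounded counts, no filter, and leaving out libraries were the alternatives.

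The members and the gene lists were chosen with earlier results of these data known. Named genes were the 6 subunits, the 3 genes with the highest and the 3 with the lowest r for each, and from each pathway list those with the 2 highest means and the 2 highest coefficients of variation among genes averaging at least 100, and listed genes called between runs. Others are named for their role or, where said, for their values. Values of 3 genes that the rule or the lists would name are not reported here. Transcript lengths, proteins and the promoters of Ncf4, Rac1 and Rac2 were not used here, so levels were not compared between genes.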

Additional observations from a re-analysis of the deposited data

How the results depend on the processing

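No subunit was called between run codes under any alternative, where the lowest adjusted p was 0.203. Centring within run codes, which also left out controls 15 and 16, raised the pairs of subunits that passed from 8 to 13. Leaving out controls 2, 8 and 12 lowered the relations with marker lists that passed from 20 to 10. It also lowered the coefficients of variation of Cyba, Ncf1 and Rac2 to 40.5%, 41.2% and 24.7%. The cause was not tested. Leaving out each library in turn gave 7 to 11 pairs and 11 to 22 relations with marker lists (11 without control 8). The coefficients ran from 27.1% to 31.8% for Cybb, 40.3% to 56.0% for Cyba, 43.4% to 59.4% for Ncf1, 38.6% to 44.4% for Ncf4, 25.7% to 35.3% for Rac1 and 23.3% to 36.7% for Rac2, and the SDs of log2 ratios from 0.516 to 0.662 for Cybb to Cyba (lowest without control 6), 0.372 to 0.440 for Ncf1 to Ncf4 and 0.348 to 0.479 for Rac1 to Rac2 (lowest without control 16). No paired analysis was possible because the libraries form 1 group, so no compared groups share replicate numbers.

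Changes of sign occurred only in values that had not passed a test, apart from the T cell relations. Total count scaling, which moved the median of all genes by -0.50 between B and A and 0.53 between D and B, gave -0.57 for Cybb, -0.24 for Ncf4, -0.28 for Rac1 and -0.16 for Rac2 between B and A, and 0.47 for Cyba and 0.51 for Rac2 between D and B. limma gave 0.11 for Cyba and 0.063 for Rac2 between D and B. A fit of all 16 libraries gave -0.0036 for Cybb between B and A and 0.030 for Rac2 between D and B, and no filter gave 0.0044 for the latter. With 1 library left out, changes between B and A ran from -0.23 to 0.23 for Cybb and -0.036 to 1.06 for Ncf1, and that of Cybb between D and A from -0.16 to 0.29. Between D and B they ran from -0.11 to 0.28 for Cybb, -0.40 to 0.46 for Cyba, -0.17 to 0.73 for Ncf1, -0.13 to 0.28 for Ncf4, -0.021 to 0.36 for Rac1 and -0.24 to 0.33 for Rac2. Without controls 2, 8 and 12 the r of Cybb and Rac1 was -0.042. The r of T cell genes with Cybb was 0.036 by total count and 0.018 by total count without globin genes, and with Rac1 0.045 and 0.043. Of the values for single genes and single relations under all alternatives, 1044 kept their direction and side of the threshold, 59 no longer passed and 22 passed newly.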
